A study of Mus musculus with 22 samples.

Results

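Peroxisome assembly and peroxisomal metabolism were followed through 45 named mouse genes in the livers of Cyp2c70 knockout and wild type mice fed chow or ursodeoxycholic acid (UDCA). The genes were taken by symbol from a list of 13 peroxins, the Pex genes that build the organelle, and 32 peroxisomal enzymes, membrane proteins and close partners, and all 45 were found among the 24011 genes measured. All mice were females aged 12 weeks on the C57BL/6J background, which the labels give as the strain background of both genotypes. The groups were 5 wild types on chow (WT_chow), 6 wild types on chow with 0.1% UDCA (WT_UDCA), 5 knockouts on chow (KO_chow) and 6 knockouts on the UDCA chow (KO_UDCA). UDCA feeding started at the age of 5 weeks and lasted 7 weeks. Liver RNA from each mouse was hybridised to its own Affymetrix MoGene 2.0 ST array, giving 22 arrays.

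Peroxisomes are single-membrane organelles in which very long chain, branched chain and dicarboxylic fatty acids are shortened, the side chain of bile acid precursors is cleaved, phytanic acid is broken down and the first steps of ether lipid synthesis take place. Their matrix enzymes are made in the cytosol, bound by the receptors PEX5 or PEX7, passed through a docking complex, and released when the receptors are pulled back out by ubiquitination and an ATPase complex. Liver peroxisomes are abundant in hepatocytes, and many of their genes are targets of the nuclear receptor PPAR-alpha in rodents. CYP2C70 makes the 6-hydroxylated muricholic acids of mice, so knockout mice carry a more human-like, more hydrophobic bile acid pool, and UDCA is a hydrophilic bile acid used in cholestatic liver disease.

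Values are log2 array intensities, and a difference is called when limma's adjusted p is below 0.05. Array medians lay between 28.7 and 31.1 intensity units, and no value in the table was 0. The targeted gene, Cyp2c70, read 11.62, 11.57, 11.56, 11.41 and 11.28 in the 5 WT_chow mice and 10.83, 10.65, 10.58, 10.67 and 10.52 in the 5 KO_chow mice, and ran from 11.22 to 11.58 (median 11.46) in WT_UDCA and from 10.27 to 10.74 (median 10.49) in KO_UDCA. Every knockout lay below every wild type, by 1.78-fold on chow (limma adjusted p = 3.2e-06); the labels do not say which part of the gene was deleted, so a remaining signal in the knockouts says nothing about protein. Among 10 measured hepatocyte markers, summed intensity was 39318 to 42059 in WT_chow, 39575 to 41547 in WT_UDCA, 39627 to 41519 in KO_chow and 39471 to 42523 in KO_UDCA.

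The 5 KO_chow mice were not alike for peroxisomal genes. The mean log2 level of the 45 genes, set against the WT_chow mean, was -0.263, -0.721, -0.352, -0.187 and -0.736 in KO_chow replicates 1 to 5. Replicates 2 and 5 were the lowest 2 knockouts in 38 of the 45 genes. Both were low for peroxins (-0.593 and -0.658) and for the other 32 genes (-0.773 and -0.768), whereas the WT_chow mice ran from -0.104 to 0.0741 over all 45. Results are therefore also given without these 2 mice, a choice made after their values were seen. The median SD of the 45 genes was 0.259 in KO_chow, 0.112 in WT_chow, 0.148 in WT_UDCA and 0.123 in KO_UDCA, beside 0.193, 0.168, 0.184 and 0.176 over all genes.

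On chow, the knockout livers held less mRNA of most peroxisomal genes than wild type livers, across both assembly and metabolism. Of the 45 genes, 31 fell and 2 rose, where 6.03% of all 24011 genes fell and 7.69% rose. Among the brighter genes, those above the array median in every WT_chow array, 11.5% fell and 11.4% rose. That set was not matched to the brightness of the 45 genes. Peroxins fell in 11 of 13 cases, with no peroxin higher. Enzymes, membrane proteins and their partners fell in 20 of 32 cases and rose in 2, Far1 and Agps. The median log2 difference was -0.42 for the peroxins, -0.492 for the other 32 genes and -0.037 for all genes. For 19 of the 45 the chow-fed groups did not overlap with the knockouts lower, and for 2 with the knockouts higher, against 3.98% and 5.45% of all genes. In bulk tissue, fewer cells of a type and less RNA per cell cannot be told apart. Without KO_chow replicates 2 and 5, 7 of the 45 were still called lower (Abcd2, Acot12, Eci3, Hacl1, Pecr, Pex11g and Pex16) and 1 higher (Far1), where 1.3% and 3.24% of all genes were. All 13 peroxins and 28 of the other 32 genes still had log2 differences below 0 in that fit, with medians of -0.311 and -0.259. A fit to only the chow-fed groups ended 10 of the 33 calls, those of Acot4, Decr2, Ephx2, Gnpat, Hao1, Nudt12, Pex13, Pex6, Pex7 and Phyh (adjusted p 0.0569 to 0.135).

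**Figure D1:**
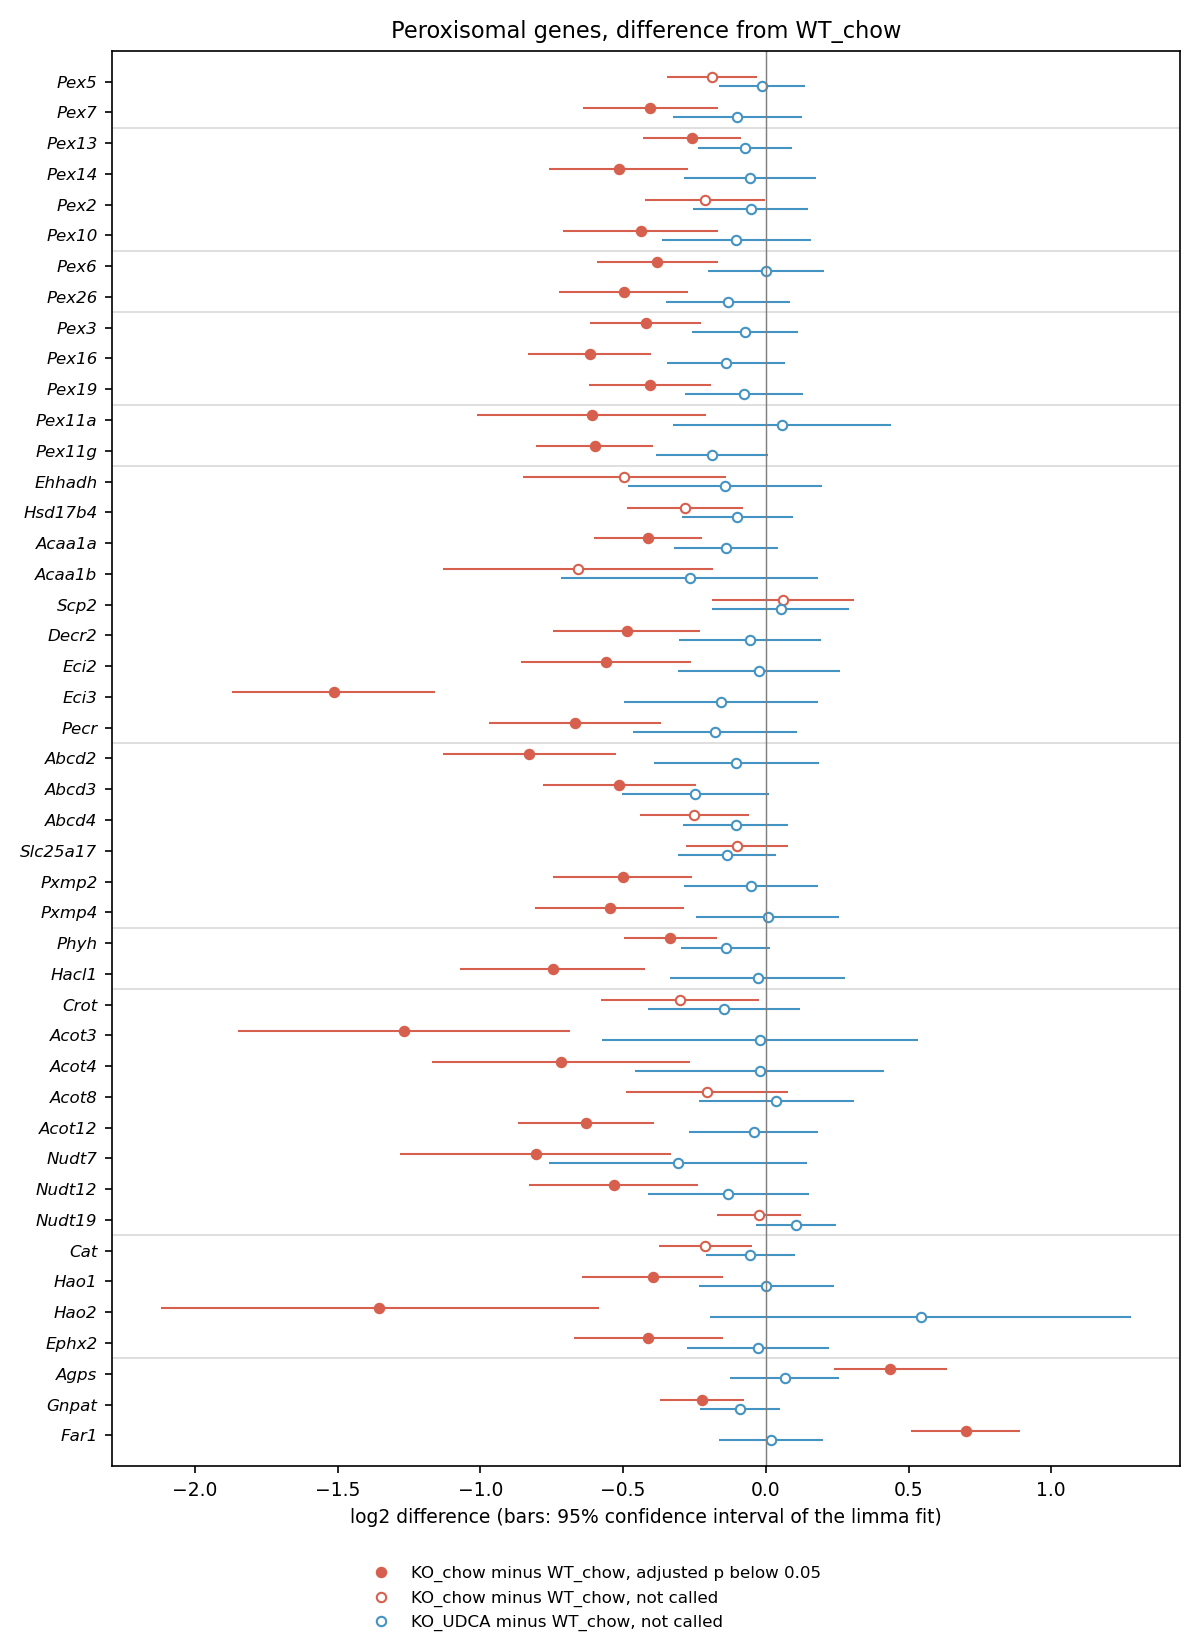
Log2 difference from chow-fed wild types for the 45 peroxisomal genes, grouped by role, in chow-fed knockouts (red) and UDCA-fed knockouts (blue), with 95% confidence intervals of the limma fit; filled points passed adjusted p below 0.05. Red points run from -1.51 (Eci3) to 0.70 (Far1), with 33 of 45 filled, while blue points lie within 0.2 of 0 for 41 genes and none is filled.

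Promoter sequences are shown for Pex11a, the peroxin with the largest difference on UDCA in knockouts, for Eci3, Hao2 and Acot3, the 3 genes with the largest falls on chow, and for Far1, the gene with the largest rise. Sequences and positions are from RefSeq on GRCm38.p6 and cover 250 bases before to 50 after the transcript start, 5′ to 3′ on the gene's strand. Capitals mark the letters AGGTCA, the core recognised by PPAR-alpha and other nuclear receptors, and GGGCGG, the GC box, on either strand.
Pex11a (chr7:79743082-79743381, minus strand): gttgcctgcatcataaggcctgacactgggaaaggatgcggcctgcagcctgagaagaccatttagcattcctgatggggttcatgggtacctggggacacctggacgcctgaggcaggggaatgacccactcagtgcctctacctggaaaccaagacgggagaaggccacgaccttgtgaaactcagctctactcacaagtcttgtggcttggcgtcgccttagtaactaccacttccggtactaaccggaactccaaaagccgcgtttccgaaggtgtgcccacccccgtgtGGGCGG
Eci3 (chr13:34963760-34964059, minus strand): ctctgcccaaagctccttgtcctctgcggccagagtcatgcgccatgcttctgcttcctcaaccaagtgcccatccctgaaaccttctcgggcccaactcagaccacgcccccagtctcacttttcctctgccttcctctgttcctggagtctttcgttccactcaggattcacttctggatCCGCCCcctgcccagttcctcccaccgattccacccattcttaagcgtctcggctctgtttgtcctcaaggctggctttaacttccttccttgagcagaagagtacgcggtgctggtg
Hao2 (chr3:98893181-98893480, minus strand): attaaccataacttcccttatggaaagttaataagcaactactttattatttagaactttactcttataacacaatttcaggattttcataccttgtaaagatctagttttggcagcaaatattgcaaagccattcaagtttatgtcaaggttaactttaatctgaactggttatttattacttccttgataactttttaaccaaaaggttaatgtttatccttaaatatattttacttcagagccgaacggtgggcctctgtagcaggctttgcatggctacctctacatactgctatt
Acot3 (chr12:84051894-84052193, plus strand): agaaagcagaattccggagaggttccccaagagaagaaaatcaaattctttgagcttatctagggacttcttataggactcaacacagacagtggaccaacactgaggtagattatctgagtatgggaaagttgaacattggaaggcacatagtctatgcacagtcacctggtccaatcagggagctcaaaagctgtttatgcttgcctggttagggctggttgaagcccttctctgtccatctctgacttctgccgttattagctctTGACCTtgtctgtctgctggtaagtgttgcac
Far1 (chr7:113513584-113513883, plus strand): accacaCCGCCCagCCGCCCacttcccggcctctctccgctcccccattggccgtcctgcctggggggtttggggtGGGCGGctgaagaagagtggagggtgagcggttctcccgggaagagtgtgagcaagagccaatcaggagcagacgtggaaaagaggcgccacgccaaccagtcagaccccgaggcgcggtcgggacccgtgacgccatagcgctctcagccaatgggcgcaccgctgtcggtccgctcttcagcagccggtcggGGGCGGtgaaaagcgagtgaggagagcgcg
Acot3 held 1 AGGTCA core, Pex11a and Eci3 held 1 GC box each, Far1 held 4 and Hao2 held neither. Acot3 has 2 windows in the table, and the first is printed. Across the 37 of 45 genes with an entry (43 windows), the GC box was found in 67.4% of windows against 35.7% of all 32851 windows, and the median GC content was 57% against 52.7%. AGGTCA was found in 18.6% against 16.3%, and the motif CCGGAAG of ETS factors in 18.6% against 8.86%. The direct repeat AGGTCANAGGTCA, the PPAR-alpha element spelled without mismatch, was in 0 of the 43 windows and in 0.0396% of all windows. Both strands were searched; a match describes the letters and not a binding site.

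Of the import receptors and the docking and ubiquitin ligase peroxins, 4 of 6 fell in chow-fed knockouts. Pex14, whose product docks the loaded receptor at the membrane, read 8.27, 8.27, 8.12, 8.26 and 8.71 in WT_chow and 7.79, 7.66, 7.97, 8.13 and 7.51 in KO_chow. It ran from 8.10 to 8.53 (median 8.41) in WT_UDCA and from 8.18 to 8.44 (median 8.25) in KO_UDCA. Knockouts 2 and 5 were the lowest, and the chow-fed groups overlapped only through KO_chow replicate 4 and WT_chow replicate 3. The log2 difference was -0.52 ± 0.117 (SE, adjusted p = 0.00422), a 1.43-fold lower level. Pex7, the receptor for the PTS2 signal, went from 7.99 ± 0.04 (SD, n = 5) in WT_chow to 7.58 ± 0.36 (SD, n = 5) in KO_chow, a difference of -0.40 ± 0.114 (SE, adjusted p = 0.0187). Pex10, a RING subunit of the receptor ubiquitin ligase, went from 5.83 ± 0.12 to 5.39 ± 0.21, a difference of -0.44 ± 0.132 (SE, adjusted p = 0.0271). Pex13, the other docking component, went from 8.32 ± 0.04 to 8.06 ± 0.20, the smallest called difference among peroxins at -0.26 ± 0.083 (SE, adjusted p = 0.0383). Pex5, the receptor for the PTS1 signal carried by most matrix enzymes, and Pex2, a second ligase subunit, were not called, at -0.19 ± 0.0767 (SE, adjusted p = 0.112) and -0.21 ± 0.102 (SE, adjusted p = 0.191). Several of these calls were lost when 1 mouse was left out, and for Pex10 and Pex13 any of several mice did so. Pex7 was no longer called without chow-fed knockout 2 or 5 (adjusted p 0.0711 to 0.0716). Pex10 was lost without chow-fed knockout 1, 2 or 5 or chow-fed wild type 1, 3 or 5 (adjusted p 0.0525 to 0.0669). Pex13 was lost without chow-fed knockout 2, 3 or 5 or chow-fed wild type 1, 3, 4 or 5 (adjusted p 0.0616 to 0.134). None of the 6 was called once KO_chow replicates 2 and 5 were left out, with Pex14 at -0.36 (adjusted p = 0.101) and Pex7 at -0.15 (adjusted p = 0.336).

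Receptor recycling and membrane assembly peroxins all fell, 5 of 5. Pex16, which helps to insert peroxisomal membrane proteins, showed the largest difference of any peroxin. It read 7.33, 7.22, 7.45, 7.27 and 7.27 in WT_chow and 6.85, 6.43, 6.76, 6.84 and 6.57 in KO_chow. The 5 knockouts lay below all 5 wild types, and the log2 difference was -0.62 ± 0.104 (SE, adjusted p = 0.000312), or 1.53-fold. On UDCA, Pex16 ran from 7.17 to 7.40 (median 7.31) in wild types and from 6.76 to 7.37 (median 7.21) in knockouts. PEX3 and PEX19 bring membrane proteins to the organelle as anchor and chaperone. Pex3 went from 8.52 ± 0.08 to 8.10 ± 0.21 (SD, n = 5 each), a difference of -0.42 ± 0.0939 (SE, adjusted p = 0.00375), and Pex19 went from 8.96 ± 0.11 to 8.55 ± 0.18, a difference of -0.41 ± 0.104 (SE, adjusted p = 0.00997). Of the exportomer that extracts used receptors, Pex26, the membrane anchor, went from 6.97 ± 0.10 to 6.47 ± 0.21 (difference -0.50 ± 0.109 (SE, adjusted p = 0.00327)) with groups that did not overlap. Pex6, an ATPase of the same complex, went from 7.56 ± 0.04 to 7.17 ± 0.26 and differed by -0.38 ± 0.102 (SE, adjusted p = 0.0138), and its call was lost without chow-fed knockout 5 (adjusted p 0.0543). Pex16 stayed called with both low knockouts, KO_chow replicates 2 and 5, left out, at -0.49 (adjusted p = 0.0102), while Pex3 was at -0.31 (adjusted p = 0.0882), Pex19 at -0.29 (adjusted p = 0.172), Pex26 at -0.36 (adjusted p = 0.0716) and Pex6 at -0.23 (adjusted p = 0.23).

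The PEX11 proteins elongate the membrane before peroxisomes divide, and both measured family members fell. Pex11g read 7.71, 7.51, 7.61, 7.63 and 7.37 in WT_chow against 7.01, 6.83, 7.15, 7.17 and 6.67 in KO_chow. No knockout reached the lowest wild type, and the log2 difference was -0.60 ± 0.099 (SE, adjusted p = 0.00025). UDCA-fed mice ran from 7.38 to 7.64 (median 7.55) in wild types and 7.24 to 7.58 (median 7.36) in knockouts. Pex11a, an inducible peroxisome proliferation gene in rodents, read 7.82, 7.19, 7.76, 7.77 and 8.05 in WT_chow against 7.34, 6.88, 6.88, 7.49 and 6.95 in KO_chow. WT_chow replicate 2 lay within the knockout range, so the groups overlapped. The log2 difference was -0.61 ± 0.193 (SE, adjusted p = 0.036), and the call was lost without chow-fed knockout 2, 3 or 5 or chow-fed wild type 1, 3, 4 or 5 (adjusted p 0.0671 to 0.101). On UDCA, Pex11a ran from 7.10 to 8.33 (median 7.70) in wild types and 7.52 to 8.06 (median 7.72) in knockouts. With KO_chow replicates 2 and 5 left out, the differences were -0.45 (adjusted p = 0.00741) for Pex11g, still called, and -0.48 (adjusted p = 0.286) for Pex11a.

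**Figure D2:**
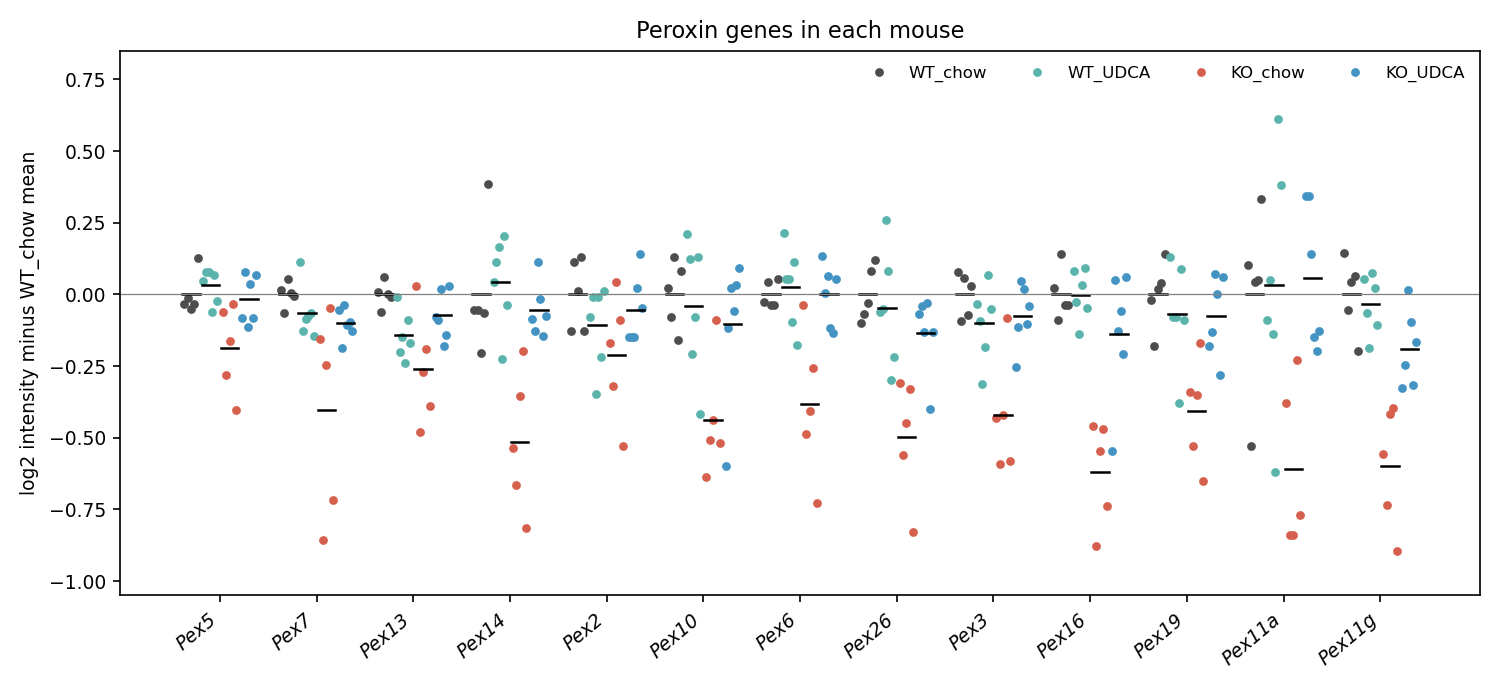
Log2 intensity of the 13 peroxin genes in each of the 22 mice minus the mean of the 5 chow-fed wild types; each point is a mouse and the black bars are group means. Chow-fed knockouts (red) have the lowest group mean for every gene, with Pex16, Pex26 and Pex11g separated from all chow-fed wild types, while UDCA-fed knockouts (blue) lie around the wild types.

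Among the 9 genes of peroxisomal beta-oxidation, 5 fell and none rose. Eci3, an enoyl-CoA isomerase that handles unsaturated chains, read 5.68, 5.55, 5.37, 6.08 and 5.82 in WT_chow against 4.37, 3.68, 4.57, 4.23 and 4.09 in KO_chow. The groups stood far apart, with the highest knockout below the lowest wild type, and the log2 difference of -1.51 ± 0.172 (SE, adjusted p = 2.26e-06), 2.85-fold, was the largest of the 45 genes on this scale. All 5 knockout values lay below the lowest array median of 4.845, and with a pseudocount of 16 intensity units the difference was -0.99, still called and smaller than that of Acot3 (-1.17) and Hao2 (-1.10). On UDCA, Eci3 ran from 5.07 to 5.97 (median 5.55) in wild types and from 5.29 to 5.91 (median 5.46) in knockouts. Pecr, a trans-2-enoyl-CoA reductase, read 8.97, 8.95, 8.93, 8.92 and 9.04 in WT_chow against 8.76, 7.69, 8.61, 8.49 and 7.92 in KO_chow without overlap, a difference of -0.67 ± 0.145 (SE, adjusted p = 0.00297). Eci2, a close relative of Eci3 whose probes may share signal with it, differed by -0.56 ± 0.144 (SE, adjusted p = 0.0106). Decr2, a 2,4-dienoyl-CoA reductase, differed by -0.49 ± 0.125 (SE, adjusted p = 0.0103), and Acaa1a, the 3-ketoacyl-CoA thiolase, by -0.41 ± 0.0922 (SE, adjusted p = 0.00375). The core enzymes of the spiral had adjusted p between 0.0573 and 0.0575 and were not called. The bifunctional enzyme Ehhadh was at -0.50 ± 0.172 (SE, adjusted p = 0.0573), the D-bifunctional enzyme Hsd17b4 at -0.28 ± 0.0983 (SE, adjusted p = 0.0573) and the second thiolase Acaa1b at -0.66 ± 0.227 (SE, adjusted p = 0.0575). Scp2, the thiolase and sterol carrier for branched chains and bile acid side chains, was at 0.06 ± 0.12 (SE, adjusted p = 0.821), with a 95% interval of -0.189 to 0.308. Eci3 was at -1.31 (adjusted p = 9.1e-05) and Pecr at -0.34 (adjusted p = 0.0472), both called, when KO_chow replicates 2 and 5 were dropped. In the same fit Eci2 was at -0.36 (adjusted p = 0.21), Decr2 at -0.25 (adjusted p = 0.236) and Acaa1a at -0.32 (adjusted p = 0.0814).

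Transporters and other membrane proteins fell in 4 of 6 cases. Abcd2, an ABC transporter of very long chain acyl-CoAs, read 9.90, 9.50, 10.01, 9.94 and 9.93 in WT_chow and 9.06, 8.78, 9.26, 9.48 and 8.56 in KO_chow. The highest knockout, replicate 4, lay just below the lowest wild type, replicate 2, and the log2 difference was -0.83 ± 0.146 (SE, adjusted p = 0.000471). It ran from 9.51 to 10.03 (median 9.74) in WT_UDCA and from 9.55 to 10.11 (median 9.70) in KO_UDCA. Abcd3 (PMP70), which carries branched chain acyl-CoAs and bile acid precursors, differed by -0.51 ± 0.13 (SE, adjusted p = 0.0097). Pxmp2, a channel for small solutes, differed by -0.50 ± 0.118 (SE, adjusted p = 0.00566). Pxmp4, another peroxisomal membrane protein, went from 9.74 ± 0.12 to 9.20 ± 0.31 (SD, n = 5 each), a difference of -0.55 ± 0.127 (SE, adjusted p = 0.00504). Slc25a17, the cofactor carrier, and Abcd4, an ABC protein now placed in lysosomal cobalamin transport, were not called, at -0.10 ± 0.0861 (SE, adjusted p = 0.512) and -0.25 ± 0.0927 (SE, adjusted p = 0.0772). Abcd2 stayed called at -0.59 (adjusted p = 0.0148) with KO_chow replicates 2 and 5 left out, a fit in which Abcd3 was at -0.27 (adjusted p = 0.221), Pxmp2 at -0.29 (adjusted p = 0.146) and Pxmp4 at -0.34 (adjusted p = 0.125).

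Both enzymes of phytanic acid alpha-oxidation fell. Hacl1, the 2-hydroxyacyl-CoA lyase that removes the terminal carbon, read 10.76, 10.53, 11.01, 10.63 and 10.56 in WT_chow and 10.29, 9.55, 10.33, 10.25 and 9.34 in KO_chow, with no overlap. Its log2 difference was -0.74 ± 0.155 (SE, adjusted p = 0.00213). On UDCA it ran from 10.33 to 10.81 (median 10.58) in wild types and from 10.56 to 10.76 (median 10.68) in knockouts. Phyh, the phytanoyl-CoA hydroxylase that acts first, went from 10.65 ± 0.04 to 10.32 ± 0.20 (SD, n = 5 each), also without overlap, a difference of -0.33 ± 0.0792 (SE, adjusted p = 0.006). Hacl1 stayed called at -0.41 (adjusted p = 0.0387) with KO_chow replicates 2 and 5 left out, and Phyh was at -0.20 (adjusted p = 0.134).

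In the group listed under product release and coenzyme A turnover, which also holds Nudt12 and Acot12, genes fell in 5 of 8 cases. Acot3, an acyl-CoA thioesterase, read 8.61, 8.00, 8.17, 8.58 and 8.75 in WT_chow and 7.80, 6.80, 7.40, 7.71 and 6.07 in KO_chow. Replicates 5 and 2 were the lowest knockouts, no knockout reached the wild type range, and the log2 difference was -1.27 ± 0.28 (SE, adjusted p = 0.00346). Mice on UDCA ran from 7.76 to 8.73 (median 8.19) in wild types and from 7.50 to 8.91 (median 8.53) in knockouts. Acot4, a succinyl-CoA thioesterase of the same gene cluster, read 7.44, 7.25, 7.31, 7.43 and 7.80 against 7.24, 6.33, 6.61, 7.36 and 6.10 and overlapped between the chow-fed groups. Its difference was -0.72 ± 0.22 (SE, adjusted p = 0.0296), and the call was lost without chow-fed knockout 2, 3 or 5 or chow-fed wild type 1, 4 or 5 (adjusted p 0.0509 to 0.11). The Acot genes of this cluster are similar in sequence, so their probes may share signal. Acot12, an acetyl-CoA thioesterase active mainly in the cytosol, read 10.24, 10.10, 10.23, 10.23 and 10.28 against 9.85, 9.24, 9.57, 9.99 and 9.26 without overlap, a difference of -0.63 ± 0.115 (SE, adjusted p = 0.000658).

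Of the Nudix hydrolases that cut coenzyme A, Nudt7 read 9.05, 8.89, 9.01, 8.49 and 8.87 in WT_chow and 8.22, 7.75, 8.52, 8.56 and 7.23 in KO_chow. Replicates 2 and 5 were far below the other knockouts, the groups overlapped, and the log2 difference was -0.81 ± 0.228 (SE, adjusted p = 0.0194). Its call was lost without chow-fed knockout 2 or 5 (adjusted p 0.0635 to 0.0762). Nudt12, a peroxisomal NADH pyrophosphatase, differed by -0.53 ± 0.143 (SE, adjusted p = 0.0138), lost without chow-fed knockout 5 (adjusted p 0.0542). Nudt19, a further coenzyme A hydrolase, was at -0.02 ± 0.071 (SE, adjusted p = 0.881), with a 95% interval of -0.171 to 0.122. Crot, which hands medium chains to carnitine, and Acot8, a bile acyl-CoA thioesterase, were not called, at -0.30 ± 0.134 (SE, adjusted p = 0.154) and -0.21 ± 0.137 (SE, adjusted p = 0.383). Leaving out KO_chow replicates 2 and 5 kept Acot12 called at -0.41 (adjusted p = 0.0157), while Acot3 was at -0.79 (adjusted p = 0.0853), Acot4 at -0.38 (adjusted p = 0.409), Nudt7 at -0.43 (adjusted p = 0.326) and Nudt12 at -0.28 (adjusted p = 0.266).

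Of 4 genes that make or remove hydrogen peroxide and epoxides, 3 fell. Hao2, a long chain 2-hydroxy acid oxidase, read 6.77, 6.77, 7.21, 7.35 and 7.30 in WT_chow and 5.85, 4.43, 6.41, 6.43 and 5.51 in KO_chow. Replicate 2 was the lowest, all knockouts lay below all wild types, and the log2 difference was -1.35 ± 0.372 (SE, adjusted p = 0.0159); without KO_chow replicate 2 the adjusted p was 0.066. On UDCA it ran from 6.87 to 8.81 (median 7.37) in wild types and 7.22 to 9.04 (median 7.31) in knockouts, the widest spread of any of the 45 genes in both groups. Hao1, the glycolate oxidase of glyoxylate metabolism, differed by -0.40 ± 0.119 (SE, adjusted p = 0.0274). Its call was lost without chow-fed knockout 2 or 5 or chow-fed wild type 2, 3 or 5 (adjusted p 0.0544 to 0.106). Ephx2, the soluble epoxide hydrolase, differed by -0.41 ± 0.126 (SE, adjusted p = 0.0297), lost without chow-fed knockout 2 or 5 or chow-fed wild type 1, 4 or 5 (adjusted p 0.053 to 0.115). Catalase (Cat), which breaks down hydrogen peroxide, was not called at -0.21 ± 0.0784 (SE, adjusted p = 0.0773), although all 5 knockouts lay below the 5 wild types. Leaving out KO_chow replicates 2 and 5 together gave -0.85 (adjusted p = 0.248) for Hao2, -0.15 (adjusted p = 0.433) for Hao1 and -0.14 (adjusted p = 0.485) for Ephx2.

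In ether lipid synthesis 2 genes rose and 1 fell. Far1, the fatty acyl-CoA reductase that supplies the fatty alcohol and controls the rate of plasmalogen synthesis, read 5.42, 5.53, 5.57, 5.63 and 5.53 in WT_chow and 6.20, 6.44, 6.22, 6.02 and 6.31 in KO_chow. Every knockout was above every wild type, and the log2 difference was 0.70 ± 0.0924 (SE, adjusted p = 1.54e-05), 1.63-fold higher. Agps, which swaps the acyl chain for that alcohol, read 6.39, 6.26, 6.31, 6.54 and 6.40 against 6.67, 6.93, 6.87, 6.60 and 7.01, also without overlap, a difference of 0.44 ± 0.0955 (SE, adjusted p = 0.00325). On UDCA, Far1 ran from 5.25 to 5.63 (median 5.45) in wild types and 5.32 to 5.75 (median 5.55) in knockouts. Agps ran from 6.16 to 6.49 (median 6.37) and 6.25 to 6.70 (median 6.41) in the same groups. Gnpat, the acyltransferase that acts just before AGPS, fell, with a difference of -0.22 ± 0.0709 (SE, adjusted p = 0.036). That call was lost without chow-fed knockout 2, 3 or 5 or chow-fed wild type 1, 3 or 5 (adjusted p 0.0704 to 0.0919). Far1 was still called at 0.61 (adjusted p = 0.000633) without KO_chow replicates 2 and 5, with Agps at 0.33 (adjusted p = 0.0746) and Gnpat at -0.19 (adjusted p = 0.222). In the knockouts where the other genes were lowest, replicates 2 and 5, Far1 and Agps were highest.

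**Figure D3:**
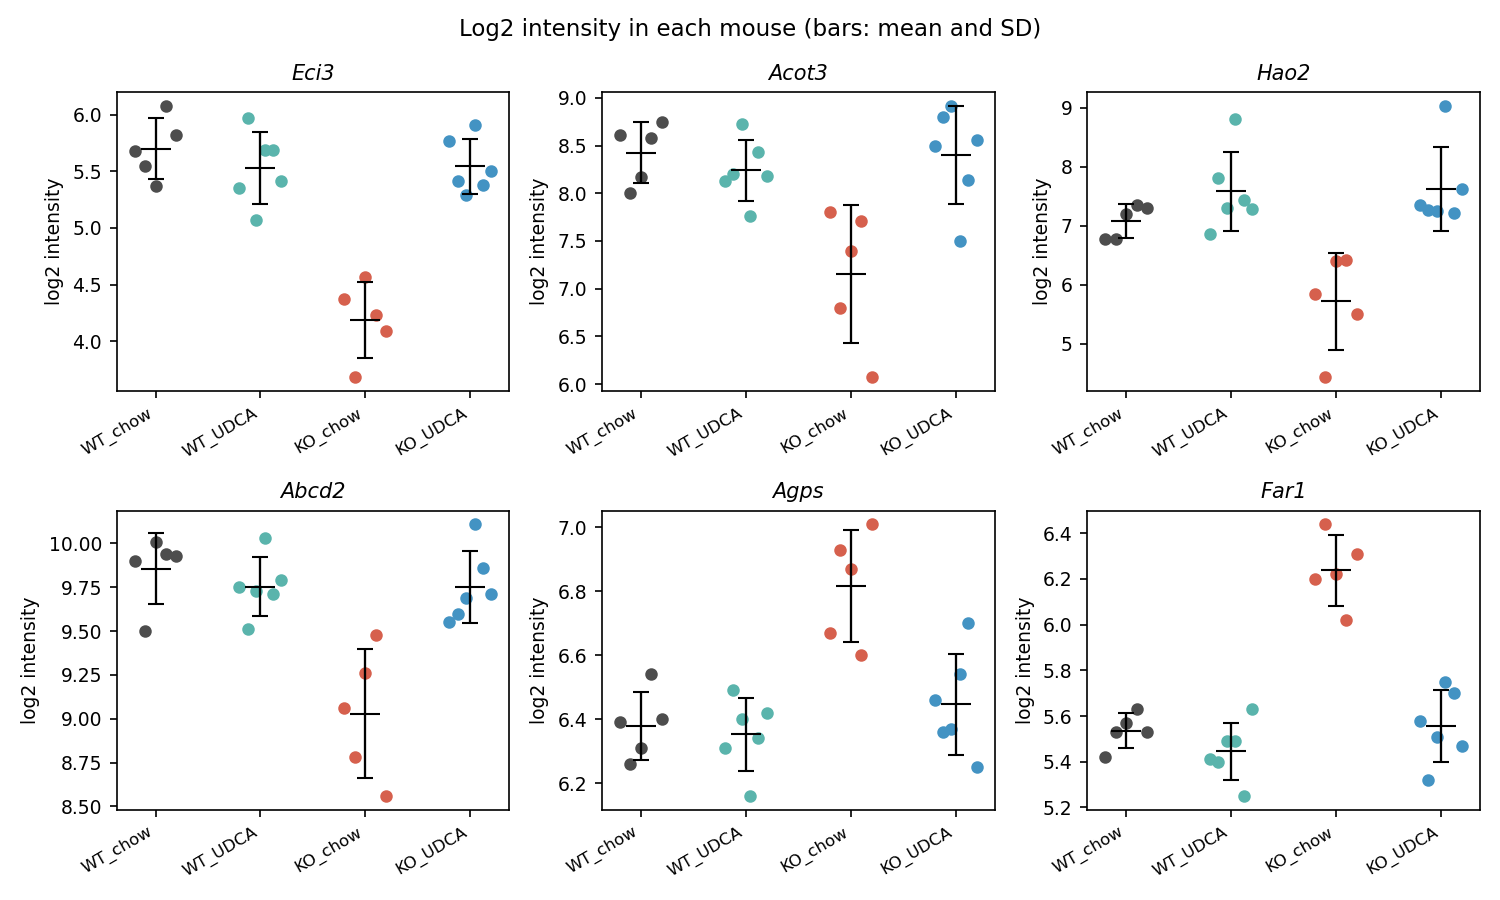
Log2 intensity of 6 peroxisomal genes in each mouse of the 4 groups; points are mice, and black lines give the mean and SD. Eci3, Acot3, Hao2 and Abcd2 are lower, and Agps and Far1 higher, in all 5 chow-fed knockouts than in any chow-fed wild type, and the UDCA-fed knockouts lie around the wild types.

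Markers of several other cell types differed between the same chow-fed groups. The 10 hepatocyte markers were bright, with WT_chow means from 9.26 (Asgr1) to 13.02 (Alb) in log2, where the highest intensity measured was 10284. Whether markers this bright would show a loss of hepatocytes was not tested. They stayed near the WT_chow mean in each KO_chow mouse, from -0.114 to 0.0103 in mean log2, and were lowest in replicates 2 and 5. Their median difference was -0.0481, and 1 of 10 was called (Asgr1, -0.26 ± 0.0796 (SE, adjusted p = 0.0278)). In the same mice cholangiocyte markers were higher in 8 of 8 cases, with summed intensity from 644 to 1274 in KO_chow against 257 to 286 in WT_chow. Monocyte-derived macrophage markers were higher in 8 of 8, from 1346 to 5568 against 435 to 501. Stellate cell and fibroblast markers were higher in 7 of 9, from 2771 to 3556 against 1745 to 1813. Kupffer cell markers were lower in 5 of 7, from 886 to 1168 against 1440 to 1671. Neutrophil markers summed to 99 to 177 against 84 to 91. The sums overlapped for endothelial markers (1050 to 1373 against 1127 to 1408). They also overlapped for T, B and NK cell markers (121 to 139 against 115 to 133) and adipocyte markers (91 to 201 against 91 to 110). Macrophage markers stood 1.62, 3.25, 2.22, 1.72 and 2.95 above the WT_chow mean in log2 in KO_chow replicates 1 to 5, so they were highest in replicates 2 and 5, the mice with the lowest peroxisomal levels. When each array was centred on its hepatocyte markers (chosen with the data in view), the median difference was -0.375 for peroxins and -0.447 for the other 32 genes, and 29 of the 33 calls held, without those of Gnpat, Pex10, Pex11a and Pex13. The part of the other cell types in the result was not tested.

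**Figure D4:**
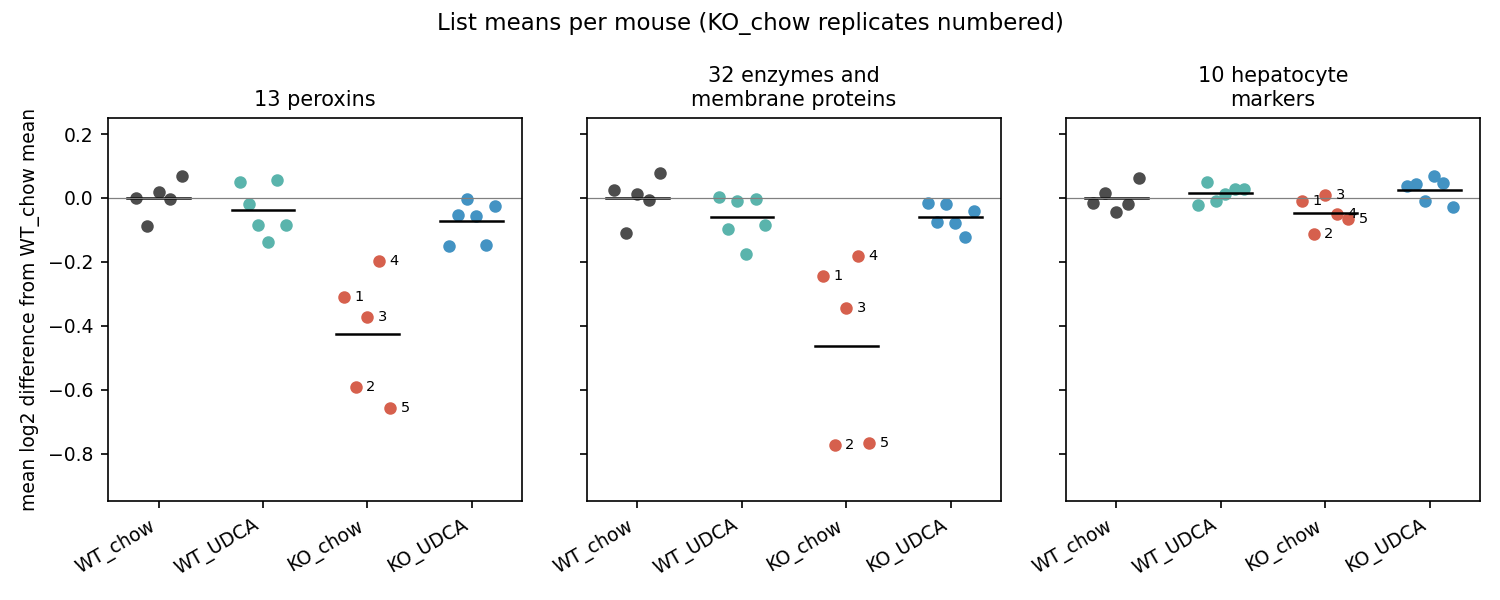
Mean log2 difference from the chow-fed wild types over 13 peroxins, 32 peroxisomal enzymes and membrane proteins, and 10 hepatocyte markers; each point is a mouse, bars are group means, and chow-fed knockouts carry their replicate numbers. Peroxins run from -0.658 to -0.198 and the 32 genes from -0.773 to -0.182 in chow-fed knockouts. Hepatocyte markers run from -0.114 to 0.0103 in the same mice. Replicates 2 and 5 are lowest in each panel.

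UDCA feeding of knockouts, set against chow-fed knockouts, asks what the bile acid did in the absence of CYP2C70. Of the 45 genes, 23 rose and 2 fell, where 5.03% of all genes rose and 6.22% fell (9.65% and 9.11% of the brighter genes). The same mice, KO_chow, are the low group here and in the chow comparison, so a low or high value in them enters both, and the values are given side by side only: Eci3 was -1.51 for KO_chow against WT_chow and 1.35 for KO_UDCA against KO_chow, Pex16 was -0.62 and 0.48, and Far1 was 0.70 and -0.68. The median log2 difference was 0.349 for peroxins, 0.387 for the other 32 genes and 0.0327 for all genes. Leaving out KO_chow replicates 2 and 5 gave 0.232 for peroxins, all 13 above 0, 0.145 for the other 32 genes, 7 of them below 0, and 0.0301 for all genes. KO_UDCA and KO_chow did not overlap for 10 genes with KO_UDCA higher and 1 with it lower, against 2.62% and 3.27% of all genes. Without KO_chow replicates 2 and 5 the count of calls was 4: Eci3, Hao2 and Acot12 higher and Far1 lower, where 0.708% of all genes were called higher and 2.09% lower. A fit to only the knockout groups ended 12 of the 25 calls, those of Acaa1a, Acot4, Agps, Decr2, Ephx2, Hao1, Pecr, Pex19, Pex26, Pex3, Pex6 and Pxmp2 (adjusted p 0.0531 to 0.13). Single chow-fed knockouts also moved the count, to 14 without replicate 2 and 13 without replicate 5, for which shares of all genes are not given. Cholangiocyte and macrophage markers fell in 8 of 8 cases each in this comparison, and 1 of 10 hepatocyte markers rose. Centring each array on its hepatocyte markers ended 7 of the 25 calls, those of Acaa1a, Acot4, Ephx2, Hao1, Pex19, Pex26 and Pex3, array weights that of Acaa1a (adjusted p = 0.0622) and quantile normalization that of Ephx2 (adjusted p = 0.0504).

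Peroxins rose in 8 of 13 cases. Pex11a showed the largest difference among them, 0.67 ± 0.185 (SE, adjusted p = 0.0205), 1.59-fold, and every KO_UDCA mouse was above every KO_chow mouse. Pex11g (0.41 ± 0.0948 (SE, adjusted p = 0.0063)) and Pex14 (0.46 ± 0.112 (SE, adjusted p = 0.00903)) also did not overlap between these groups. Pex16 differed by 0.48 ± 0.0996 (SE, adjusted p = 0.00284), Pex6 by 0.38 ± 0.0978 (SE, adjusted p = 0.0127), Pex26 by 0.36 ± 0.105 (SE, adjusted p = 0.0251), Pex3 by 0.35 ± 0.0899 (SE, adjusted p = 0.0131) and Pex19 by 0.33 ± 0.0991 (SE, adjusted p = 0.0324). Pex7, Pex10, Pex13, Pex5 and Pex2 were not called, with differences of 0.30, 0.33, 0.19, 0.18 and 0.16. Calls were lost for Pex11a without chow-fed knockout 2, 3 or 5 (adjusted p 0.0555 to 0.0663), for Pex19 without UDCA-fed knockout 3, 4 or 6 or chow-fed knockout 2 or 5 (adjusted p 0.0612 to 0.117) and for Pex26 without UDCA-fed knockout 2 or 4 or chow-fed knockout 2 or 5 (adjusted p 0.0506 to 0.101). Likewise Pex3 was lost without chow-fed knockout 2 or 5 (adjusted p 0.0507 to 0.0515) and Pex6 without chow-fed knockout 5 (adjusted p 0.0552). No peroxin was called without KO_chow replicates 2 and 5, with Pex11a at 0.54 (adjusted p = 0.227), Pex16 at 0.35 (adjusted p = 0.084), Pex11g at 0.26 (adjusted p = 0.159) and Pex14 at 0.31 (adjusted p = 0.193).

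Among the enzymes, Hao2 rose most on UDCA, by 1.90 ± 0.356 (SE, adjusted p = 0.00115), 3.73-fold, with no overlap between the knockout groups. KO_UDCA replicate 4 was far above the other 5 for this gene. Eci3 rose by 1.35 ± 0.165 (SE, adjusted p = 9.6e-06), or 0.87 with the pseudocount of 16, and Acot3 by 1.25 ± 0.268 (SE, adjusted p = 0.00364), the latter with 1 KO_UDCA mouse inside the KO_chow range. Abcd2 rose by 0.72 ± 0.14 (SE, adjusted p = 0.00146), Hacl1 by 0.72 ± 0.149 (SE, adjusted p = 0.00273) and Acot12 by 0.59 ± 0.11 (SE, adjusted p = 0.00112), each without overlap. Acot4 rose by 0.70 ± 0.21 (SE, adjusted p = 0.0329), lost without UDCA-fed knockout 1, 2, 3 or 6 or chow-fed knockout 2, 3 or 5 (adjusted p 0.0618 to 0.128). Pxmp4 rose by 0.55 ± 0.121 (SE, adjusted p = 0.00422), Eci2 by 0.53 ± 0.138 (SE, adjusted p = 0.013) and Pecr by 0.49 ± 0.139 (SE, adjusted p = 0.0237). In ether lipid synthesis Far1 fell by 0.68 ± 0.0884 (SE, adjusted p = 2.1e-05) and Agps by 0.37 ± 0.0915 (SE, adjusted p = 0.00993), while Gnpat was not called at 0.13. Without KO_chow replicates 2 and 5 the differences were 1.39 (adjusted p = 0.0396) for Hao2, 1.15 (adjusted p = 0.000469) for Eci3, 0.37 (adjusted p = 0.0369) for Acot12 and -0.59 (adjusted p = 0.000992) for Far1.

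The other 5 enzymes and membrane proteins that rose were the thiolase Acaa1a (0.27 ± 0.0882 (SE, adjusted p = 0.0463)), the reductase Decr2 (0.43 ± 0.12 (SE, adjusted p = 0.0205)), the channel Pxmp2 (0.45 ± 0.113 (SE, adjusted p = 0.0108)), the oxidase Hao1 (0.40 ± 0.114 (SE, adjusted p = 0.0251)) and the epoxide hydrolase Ephx2 (0.38 ± 0.12 (SE, adjusted p = 0.0405)). Several of these calls were lost when 1 mouse was left out, and for some any of several mice did so. Acaa1a was lost without UDCA-fed knockout 1, 2, 3 or 6 or chow-fed knockout 2, 3 or 5 (adjusted p 0.0807 to 0.14), Decr2 without chow-fed knockout 2 or 5 (adjusted p 0.0847 to 0.0857) and Hao1 without chow-fed knockout 2 or 5 (adjusted p 0.0942 to 0.101). Ephx2 was lost without UDCA-fed knockout 1, 2, 3 or 6 or chow-fed knockout 2 or 5 (adjusted p 0.0661 to 0.156), Eci2 without chow-fed knockout 2 or 5 (adjusted p 0.052 to 0.0551) and Pecr without UDCA-fed knockout 6 or chow-fed knockout 2 or 5 (adjusted p 0.0567 to 0.0944). None of the 5 was called without KO_chow replicates 2 and 5, where Pxmp2 was at 0.24 (adjusted p = 0.262) and Acaa1a at 0.18 (adjusted p = 0.41). The members that fell on chow and were not called here were Pex7, Pex10, Pex13, Abcd3, Phyh, Nudt7, Nudt12 and Gnpat, and for them the UDCA differences ran from 0.13 (Gnpat) to 0.50 (Nudt7).

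Whether the diet difference depended on genotype was tested as an interaction, the UDCA minus chow difference in knockouts less that in wild types. It was called for 6 of the 45 genes, 5 with a value above 0 (0.6% of all genes) and 1 below 0 (2.07% of all genes). For each of the 5 the WT_UDCA mean lay slightly below the WT_chow mean, as for Eci3 (5.53 against 5.70), and none of these wild type differences was called. Eci3 had the largest value, 1.53 ± 0.233 (SE, adjusted p = 0.000853), followed by Acot3 at 1.43 ± 0.379 (SE, adjusted p = 0.0435), Hacl1 at 0.86 ± 0.21 (SE, adjusted p = 0.0291), Abcd2 at 0.83 ± 0.198 (SE, adjusted p = 0.0256) and Acot12 at 0.70 ± 0.155 (SE, adjusted p = 0.017). Far1 was the gene below 0, at -0.59 ± 0.125 (SE, adjusted p = 0.0119). No peroxin was called, and Pex3 came nearest at 0.45 ± 0.127 (SE, adjusted p = 0.0583). Leaving out 1 mouse, any of several, ended 3 of the 6 calls. Abcd2 was lost without chow-fed knockout 2 or 5 or chow-fed wild type 3 (adjusted p 0.0515 to 0.0622). Hacl1 was lost without chow-fed knockout 2, UDCA-fed wild type 3 or 6 or chow-fed wild type 1 or 3 (adjusted p 0.0508 to 0.0698). Acot3 was lost without UDCA-fed knockout 1, 2, 3, 5 or 6, chow-fed knockout 2 or 5, UDCA-fed wild type 1, 2, 4, 5 or 6 or chow-fed wild type 1, 3, 4 or 5 (adjusted p 0.0501 to 0.0983), and also with the run of sample numbers as a term (adjusted p = 0.0541) and with the trend and robust variance prior (adjusted p = 0.0592). With the pseudocount of 16, Eci3 was at 1.00. Eci3 alone was called without KO_chow replicates 2 and 5, at 1.33 (adjusted p = 0.00532), where 0.0958% of all genes were called higher.

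No member was called in the 3 comparisons that leave out chow-fed knockouts. UDCA in wild types changed 0 of 45 genes (0 at an unadjusted limma p below 0.05), where 0% of all genes were called, and the differences ran from -0.23 for Crot to 0.51 for Hao2. KO_UDCA against WT_UDCA gave 0 of 45, with 1 at an unadjusted p below 0.05, Nudt19 at 0.16 ± 0.0648 (SE, adjusted p = 0.839), beside 0.0167% of all genes; differences ran from -0.21 (Nudt7) to 0.20 (Acot4). KO_UDCA against WT_chow gave 0 of 45 (0 at an unadjusted p below 0.05) beside 0.025% of all genes, from -0.31 (Nudt7) to 0.54 (Hao2). Differences under 0.2 in log2 were found for 42, 43 and 41 genes in these 3 comparisons. The 95% intervals reached from -0.738 to 1.24, from -0.667 to 0.739 and from -0.761 to 1.28 at their widest. For Pex16 the interval of KO_UDCA against WT_chow was -0.345 to 0.0667, for Eci3 -0.498 to 0.183, for Abcd2 -0.393 to 0.186 and for Far1 -0.165 to 0.201. Abcd3 and Phyh did not overlap between KO_UDCA and WT_chow, with the treated knockouts lower, but were not called (-0.25 ± 0.125 (SE, adjusted p = 0.887) and -0.14 ± 0.0759 (SE, adjusted p = 0.909)); 0.483% of all genes were lower without overlap.

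Peroxisomal genes outside the 45 were taken from a second list. Of 47 listed, 38 were analysed here. In chow-fed knockouts 16 fell and 1 rose, where 6.03% of all genes fell and 7.69% rose. The median log2 difference of the 38 was -0.292. Mpv17l, a membrane protein linked to reactive oxygen metabolism, was lowest at -1.11 ± 0.161 (SE, adjusted p = 6e-05), followed by Aldh3a2, a fatty aldehyde dehydrogenase, at -0.56 ± 0.161 (SE, adjusted p = 0.0217), Ddo, the D-aspartate oxidase, at -0.54 ± 0.163 (SE, adjusted p = 0.0279) and Mlycd, the malonyl-CoA decarboxylase, at -0.49 ± 0.105 (SE, adjusted p = 0.00265). Of 9 measured beta-oxidation and bile acid side chain enzymes outside the 45, 8 fell. The 4 genes of the division machinery gave 0 calls, with a median difference of 0.088. The single gene that rose was Xdh, xanthine dehydrogenase, at 0.26 ± 0.0874 (SE, adjusted p = 0.0481). On UDCA in knockouts 9 of the 38 rose and 1, Xdh, fell, where 5.03% of all genes rose and 6.22% fell. In the fit that drops KO_chow replicates 2 and 5, 1 of the 38 was called on chow, Mpv17l at -0.92 (adjusted p = 0.00239). That fit called 1.3% of all genes lower on chow and 0.708% higher on UDCA. On UDCA it called 2 of the 38, Mpv17l at 0.63 (adjusted p = 0.0457) and Mlycd at 0.41 (adjusted p = 0.0224).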

How the data were processed

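The table holds RMA values on an unlogged scale per the labels, that is, linear intensity per gene and array; RMA is named in the submitters' processing notes, with no version. The rows were named through the platform annotation: of 24973 rows, 24015 had 1 symbol, 958 had none, and 24011 genes remained after 4 symbols on several rows were reduced to the brightest row. Values were log2 transformed and all 22 arrays fitted together in limma 3.58.1 (R 4.3.3) with lmFit and eBayes, a mean per group and no covariate, two-sided, with Benjamini-Hochberg adjustment over all genes. The samples are called biological replicates in the design text, and p-values refer to variation among these mice; replicate numbers follow record order. The number of arrays limits the precision, and intensities of different genes were not compared. The 45 genes and the other lists were chosen with earlier results of these data known. Values per mouse or per group were given for the 10 largest called differences in each knockout comparison with chow-fed knockouts, members called in the interaction and called peroxins; of other lists, up to 4 called genes. The fit was tested on simulated data with 1 SD per gene for all groups and no correlation between genes. The wider spread of KO_chow was not part of that test. Alternatives covered the samples fitted, array weights, the variance prior, a filter on dim genes, a pseudocount of 16, quantile normalization, the runs of sample numbers as a term, the mean of rows, each mouse left out, and 2 settings added after the data were seen. Promoter windows came from RefSeq and were scanned in Python 3.11.15.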

Additional observations from a re-analysis of the deposited data

Results flagged for a closer look

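Single mice stood apart from the rest of their group for 13 of the 180 groups of values tested (45 genes in 4 groups), where the criterion marks about 1 group in 20, or 9 of 180, by chance. KO_UDCA replicate 4 accounted for 4 of them: it read 10.30 for Hsd17b4, 10.65 for Abcd3, 5.16 for Abcd4 and 9.04 for Hao2, the gene with the largest difference on UDCA. Among chow-fed wild types, replicate 5 read 8.05 for Pex5 and 8.71 for Pex14, and replicate 2 read 9.50 for Abcd2 and 10.10 for Acot12. WT_UDCA replicate 1 read 8.10 for Pex7, and WT_UDCA replicate 4 read 9.78 for Decr2. In the UDCA-fed knockouts, replicate 1 read 5.23 for Pex10, replicate 5 read 6.57 for Pex26 and replicate 2 read 8.17 for Slc25a17. No chow-fed knockout was marked. The criterion uses the gap between 1 extreme value and its neighbour, so 2 mice that are low together can mask each other. KO_chow replicates 2 and 5 were the lowest 2 knockouts in 38 of the 45 genes.

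The diet difference was not the same in both genotypes, by the limma interaction test, for Eci3 (1.53), Acot3 (1.43), Hacl1 (0.86), Abcd2 (0.83), Acot12 (0.70) and Far1 (-0.59), given as the log2 difference between UDCA and chow in knockouts less that in wild types.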

How the results depend on the processing

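No paired analysis was possible because the replicate numbers were given in record order and pair no mice between groups. Of the 33 calls between chow-fed groups, 8 held in every setting, as did 4 of the 25 on UDCA in knockouts and 1 of the 6 interactions. The chow count was 23 with only the groups compared in the fit and 8 without KO_chow replicates 2 and 5, and lay between 22 and 37 with a mouse left out. The UDCA count in knockouts was 13 with only the groups compared in the fit, 4 without KO_chow replicates 2 and 5, and between 13 and 30 with a mouse left out. The interaction count was 5 with the run of sample numbers as a term, 11 with the filter on dim genes, 10 with a pseudocount of 16, 1 without KO_chow replicates 2 and 5, and between 3 and 14 with a mouse left out. The count was 0 in every setting for the other 3 comparisons. Shares of all genes called are not set beside these counts, and the filter on dim genes left 11585 genes to test. Centring on hepatocyte markers, also added after the data were seen, ended 4 of 33, 7 of 25 and 0 of 6 calls. No called difference changed sign. Uncalled ones did. On chow, Scp2 was at -0.022 without KO_chow replicate 4 (-0.022 to 0.154 with a mouse left out), and Nudt19 at 0.021 without KO_chow replicate 2 (-0.054 to 0.021), 0.034 without replicates 2 and 5 and 0.021 with hepatocyte centring. On UDCA in knockouts, without KO_chow replicates 2 and 5, Ehhadh was at -0.0096, Acaa1b at -0.073 and Crot at -0.10. With a mouse left out Scp2 ran from -0.10 to 0.074, above 0 without KO_chow replicates 1 or 4 and KO_UDCA replicates 4 or 6, and Slc25a17 from -0.057 to 0.014, above 0 without KO_chow replicate 4 or KO_UDCA replicate 2. For dropped mice the smaller groups are part of the setting; the cause of the other shifts was not tested.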

Other observations

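Of 17 measured PPAR-alpha target genes outside the peroxisome, 8 fell and 1 rose in chow-fed knockouts. Among all genes 6.03% fell and 7.69% rose. The median log2 difference of the 17 was -0.379. Cyp4a14, a microsomal omega-hydroxylase, read 11.58, 11.42, 11.63, 11.40 and 11.97 in WT_chow and 10.47, 9.10, 10.97, 11.50 and 9.80 in KO_chow, a difference of -1.24 ± 0.309 (SE, adjusted p = 0.00877) by limma. The groups overlapped. Acot1, a cytosolic acyl-CoA thioesterase of the Acot3 cluster, was at -1.20 ± 0.338 (SE, adjusted p = 0.0185), the pantetheinase Vnn1 at -0.99 ± 0.26 (SE, adjusted p = 0.0119) and Cyp4a10 at -0.75 ± 0.219 (SE, adjusted p = 0.023). Fgf21, a hormone induced by PPAR-alpha in fasting, was the gene that rose, by 0.67 (adjusted p = 0.0195). With KO_chow replicates 2 and 5 left out, limma called 0 of the 17 on chow, where 1.3% of all genes were called lower and 3.24% higher. Cyp4a14 was then at -0.62 (adjusted p = 0.19) and Fgf21 at 0.77 (adjusted p = 0.0548). On UDCA in knockouts 6 of the 17 rose and none fell, where 5.03% of all genes rose and 6.22% fell. Among the 6 were Acot1 at 1.14 ± 0.323 (SE, adjusted p = 0.0231) and Vnn1 at 1.02 ± 0.249 (SE, adjusted p = 0.0092). In the fit that drops the 2 knockouts limma called 0 of the 17 on UDCA, where 0.708% of all genes were called higher and 2.09% lower. The median of the 17 was 0.0502, with Acot1 at 0.73 (adjusted p = 0.332) and Vnn1 at 0.60 (adjusted p = 0.227).

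Ppara itself read 9.43, 9.30, 9.11, 9.28 and 9.49 in WT_chow and 9.01, 8.66, 8.88, 9.30 and 8.14 in KO_chow, with overlap, and fell by 0.53 ± 0.149 (SE, adjusted p = 0.0194). Rxra, which encodes its DNA-binding partner, fell by 0.34 ± 0.113 (SE, adjusted p = 0.0437). In UDCA-fed against chow-fed knockouts Ppara was higher by 0.54 ± 0.143 (SE, adjusted p = 0.0155) and Rxra by 0.40 ± 0.108 (SE, adjusted p = 0.0184). When KO_chow replicates 2 and 5 were dropped, the chow differences were -0.26 (adjusted p = 0.29) for Ppara and -0.18 (adjusted p = 0.426) for Rxra, and neither UDCA call held, at 0.28 (adjusted p = 0.265) and 0.24 (adjusted p = 0.283). Ppara and Rxra came from a list of 5 regulator genes. On chow 2 of the 5 fell and 0 rose, where 6.03% of all genes fell and 7.69% rose. On UDCA in knockouts 3 rose and 1 fell, Pparg at -0.55, where 5.03% of all genes rose and 6.22% fell. With KO_chow replicates 2 and 5 dropped, 0 of the 5 were called in either comparison. The shared KO_chow mice enter both comparisons.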
